A study of Castanea mollissima with 18 samples.

Results

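Somatic embryo 5, 6 and 7 were 3 of the 12 somatic embryo libraries in an RNA sequencing series of Chinese chestnut (Castanea mollissima) tissue cultures, which held 18 libraries with the 6 of callus. They were chosen by their expression values: their profiles over all genes lay close to each other and apart from the remaining embryo libraries. The comparison set them against the other 9 embryo libraries, labelled 1, 2, 3, 4, 8, 9, 10, 11 and 12, and callus entered neither side. Because the measured values themselves defined the groups, every difference between them below is a description and carries no test. The labels give tissue and number alone, and name no stage, line, age, medium or treatment. The sample titles carry further short codes, among them ys and pe, that are the same in all 18 libraries and are not explained. Nothing says whether the 3 libraries came from separate cultures. If they are repeats of a single culture, the spread among them is technical.

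Somatic embryos arise in culture from cells that are not a fertilised egg and pass through stages that resemble those of a zygotic embryo, from a globular body to one with cotyledons. Each stage has its own gene programme: early stages are rich in transcripts for cell division and patterning, later ones in transcripts for storage proteins, oil bodies and desiccation tolerance. Callus is the unorganised, dividing tissue from which such embryos are commonly induced. The gene IDs in the table carry no names, so no stage marker or tissue marker could be looked up and the embryo label could not be checked in that way. Genes are therefore described by level, number and ID.

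Values were FPKM, fragments scaled to gene length and to the mapped total of the library, and were compared as log2(FPKM + 1). Of 33991 gene IDs, 20967 reached 1 FPKM in 3 or more of the 12 embryo libraries and were analysed. At the edge of this filter, 710 IDs reached 1 FPKM in exactly 3 libraries, with a median highest value of 2.31 FPKM, and 491 in exactly 2, with a median highest value of 1.59 FPKM. The summed FPKM ran from 982886 to 993902 in somatic embryo 5, 6 and 7, within the range of the other 9, which was 950919 to 1067585. Read depth is unknown. In bulk tissue, fewer cells of a type and less RNA per cell cannot be told apart.

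The 3 libraries were very close to each other in profile. Spearman's correlation over the analysed genes was 0.9946 between somatic embryo 5 and 6, 0.9952 between 5 and 7 and 0.9957 between 6 and 7. Only 32 to 48 genes differed 2-fold or more in a pair of them, against 172 to 3507 in pairs within 1, 4 and 12, 342 to 2519 within 2, 3 and 11 and 357 to 1144 within 8, 9 and 10. The labels do not define these other sets, which were chosen with earlier results of these data known. Over the 3 libraries the standard deviation of a gene was 0.09 (log2) in the median, compared with 0.26, 0.25 and 0.15 in those other embryo sets. Both callus sets were about as close: 9 to 20 genes differed 2-fold or more in a pair of callus 1, 2 and 6 and 47 to 71 in a pair of callus 3, 4 and 5, and their median standard deviations were 0.07 and 0.08. Identical FPKM values made up 0.467% to 0.601% of the analysed genes in each pair, so no library was an exact copy of another. In 97 genes the highest of the 3 libraries lay at least 2-fold above the lowest, and 73 of these had a mean under 5 FPKM. Among the 97, somatic embryo 5 was the lowest library in 42, somatic embryo 6 in 41 and somatic embryo 7 in 14. Of the 97, 2 belonged to the genes called higher below and 4 to those called lower. Over all analysed genes the shares so called were 6.55% and 3.22%. The demand for no overlap works against genes that vary among the 3 libraries, so nothing is read from these counts.

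The nearest library outside the set was somatic embryo 3. Its correlation with the 3 libraries was 0.929 to 0.932, and 3106 to 3279 genes differed at least 2-fold in those pairs. The farthest was somatic embryo 9, at 0.812 to 0.816 and 6132 to 6241 genes. By set, the mean correlation of somatic embryo 5, 6 and 7 was 0.912 with 2, 3 and 11, 0.898 with 1, 4 and 12 and 0.833 with 8, 9 and 10. Callus 3, 4 and 5 stood at a mean of 0.885 and callus 1, 2 and 6 at 0.830, so callus 3, 4 and 5 came closer than embryo libraries 8, 9 and 10 did. The other embryo sets had lower mean correlations with callus 3, 4 and 5, at 0.853 for 1, 4 and 12, 0.841 for 8, 9 and 10 and 0.830 for 2, 3 and 11. With callus 1, 2 and 6 their means were 0.795, 0.764 and 0.774 in the same order. Single libraries came closer to callus 3, 4 and 5 than their set mean. Somatic embryo 1 correlated with it at 0.870 to 0.877 and 12 at 0.869 to 0.875, but 4 at 0.809 to 0.812. The 3 libraries did so at 0.881 to 0.890. Their 3992 to 4329 genes that differed 2-fold overlapped the 4275 to 4434 of somatic embryo 1. All of these correlations are over genes within pairs of libraries, and genes do not act as replicates.

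**Figure D1:**
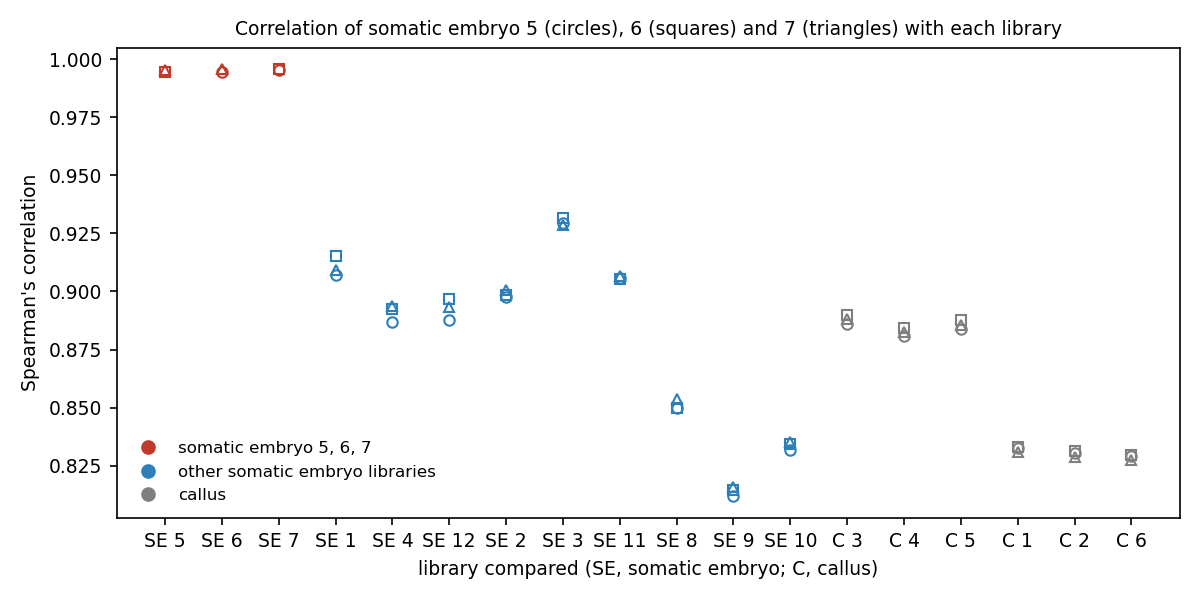
Spearman's correlation (vertical axis, starting above 0) of somatic embryo 5, 6 and 7 with each library (horizontal axis), with 1 symbol shape for each of the 3 libraries. The 3 libraries correlate at 0.9946 or more with each other, at most at 0.932 with another embryo library and at most at 0.890 with callus.

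In a principal component analysis of the 12 embryo libraries, the third component set the 3 libraries apart. It held 19.7% of the variance and placed them between 58.4 and 62.5, with all 9 others between -60.0 and 27.0. On the first component, with 43.3% of the variance, they stood at 55.9 to 57.8, near somatic embryo 4 at 47.2 and somatic embryo 3 at 41.7, and libraries 8, 9 and 10 lay at the opposite end, from -116 to -89.2. The second component, with 21.7%, placed the 3 libraries between 10.9 and 16.2, inside the range of the others. The 3 libraries thus lay above all 9 others on the first component too, but with a narrower gap than on the third.

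Somatic embryo 5, 6 and 7 held more genes at 1 FPKM on average, and less of their signal in the 10 and 100 most abundant genes, than the other embryo libraries. They held 19504, 19517 and 19597 genes at 1 FPKM or more, a mean of 19539 ± 50.4 (SD, n = 3), against 19094 ± 384 (SD, n = 9) in the other embryo libraries. The ranges overlapped, since somatic embryo 8 held 19911. The 100 most abundant genes made up 15.4% to 15.6% of the summed FPKM in the 3 libraries and 15.7% to 20.9% in the other 9, with somatic embryo 3 the lowest of these. Their 10 most abundant genes made up 3.49% to 3.66%, below every other embryo library, where the range was 3.88% to 6.85%. Callus ranged from 5.91% to 8.76%. The order did not extend to other cut-offs. The top gene held 0.685% to 0.878% in the 3 libraries and 0.556% to 2.14% in the other 9, and the top 1000 held 49.5% to 49.9% and 48.3% to 53.3%, so both ranges overlapped.

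A gene was called where its mean log2(FPKM + 1) in the 3 libraries differed by at least 1 from the mean of the other 9 and the groups did not overlap. By this rule 1373 genes (6.55% of those analysed) were higher in somatic embryo 5, 6 and 7 and 676 (3.22%) were lower, together 2049 (9.77%). Of the called genes, 67.0% were higher. The median analysed gene differed by 0.04 (log2), and the range from the 5th to the 95th percentile was -1.07 to 1.45. The median difference was 1.60 among the higher genes and -1.50 among the lower. A difference of 2 (log2) or more was seen in 410 of the higher genes and 158 of the lower, and one of 3 or more in 80 and 23. At the edge of the rule, 222 genes without overlap had a difference of 1.0 to 1.1 in either direction and 233 had one of 0.9 to 1.0. Without the demand for no overlap, 1994 genes were at least 2-fold higher and 1183 at least 2-fold lower.

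**Figure D2:**
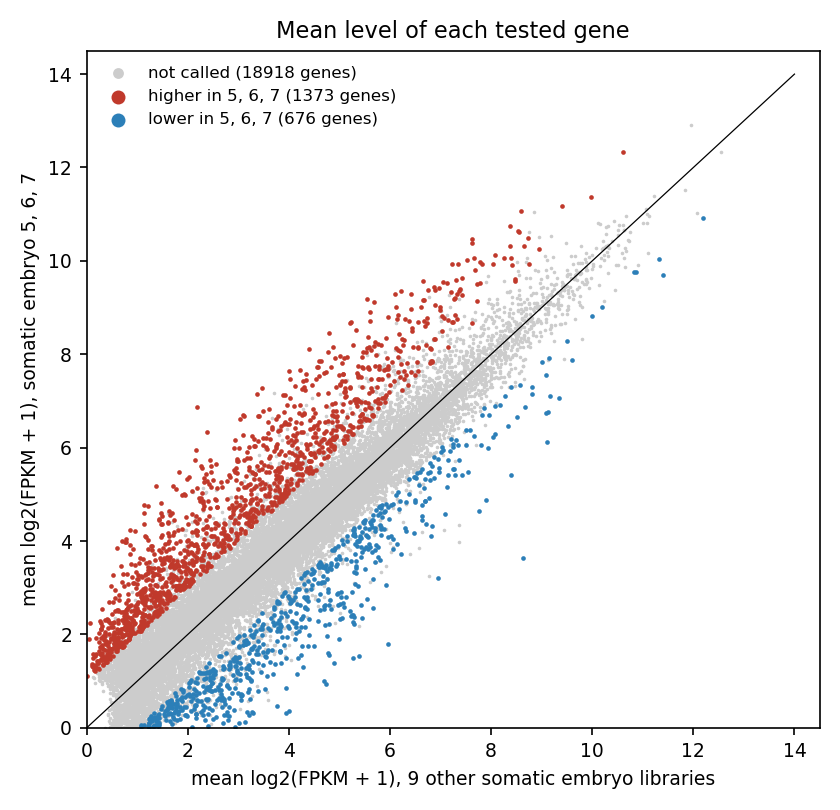
Mean log2(FPKM + 1) of each of the 20967 analysed genes in somatic embryo 5, 6 and 7 (vertical axis) against the other 9 embryo libraries (horizontal axis), with a line of equality. The 1373 genes called higher lie above the line over the whole range of levels, and the 676 called lower lie below it.

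A stricter reading asked for a gap of at least 2-fold between the nearest libraries of the groups. It left 283 higher genes (1.35%) and 100 lower genes (0.477%). The filter on low values bears on the higher genes: 143 IDs reached 1 FPKM in somatic embryo 5, 6 and 7 and in no other embryo library, and 83 of these were called higher. Such genes entered through the group in which they are high. Below a mean of 5 FPKM, 8.66% of genes were called higher and 2.89% lower. Between 5 and 50 FPKM the shares were 5.39% and 3.40%, and at 50 FPKM or more 6.65% and 3.24%, so higher genes were the more numerous at each level, as they were after median-of-ratios scaling and quantile normalization.

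Called by the same rule, 3109 genes (14.8%) set embryo libraries 8, 9 and 10 apart from their 9 counterparts, 1022 (4.87%) set 1, 4 and 12 apart and 958 (4.57%) set 2, 3 and 11 apart. With 2049, somatic embryo 5, 6 and 7 came second. These counts depend on how alike the libraries within each set were, and no set was tested against another. The 3 libraries were the most uniform of the 4 embryo sets, but they were chosen for their closeness. The labels define none of the sets, so this order depends on how the libraries were grouped.

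The genes called higher took up a large part of the transcript pool. They made up 13.8%, 12.9% and 13.3% of the summed FPKM in somatic embryo 5, 6 and 7, a mean of 13.3% ± 0.456 (SD, n = 3). In the other 9 libraries they held from 2.17% to 5.71%, with a median of 4.17%, and in the 6 callus libraries, which had no part in choosing them, from 6.75% to 8.81%, with a median of 7.60%. Callus thus lay between the embryo groups and overlapped neither. The genes called lower held 1.57% to 1.61% in the 3 libraries, 4.10% to 6.27% in the other 9 and 2.29% to 3.05% in callus. Their median gene, however, stood at a mean of 2.06 FPKM in callus, below the 3.38 FPKM of the 3 libraries. Both gene groups were chosen for their difference between the embryo libraries, so only the callus values are free of that choice. Libraries left out of such a choice tend to fall between the groups, so the place of callus is a description.

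**Figure D3:**
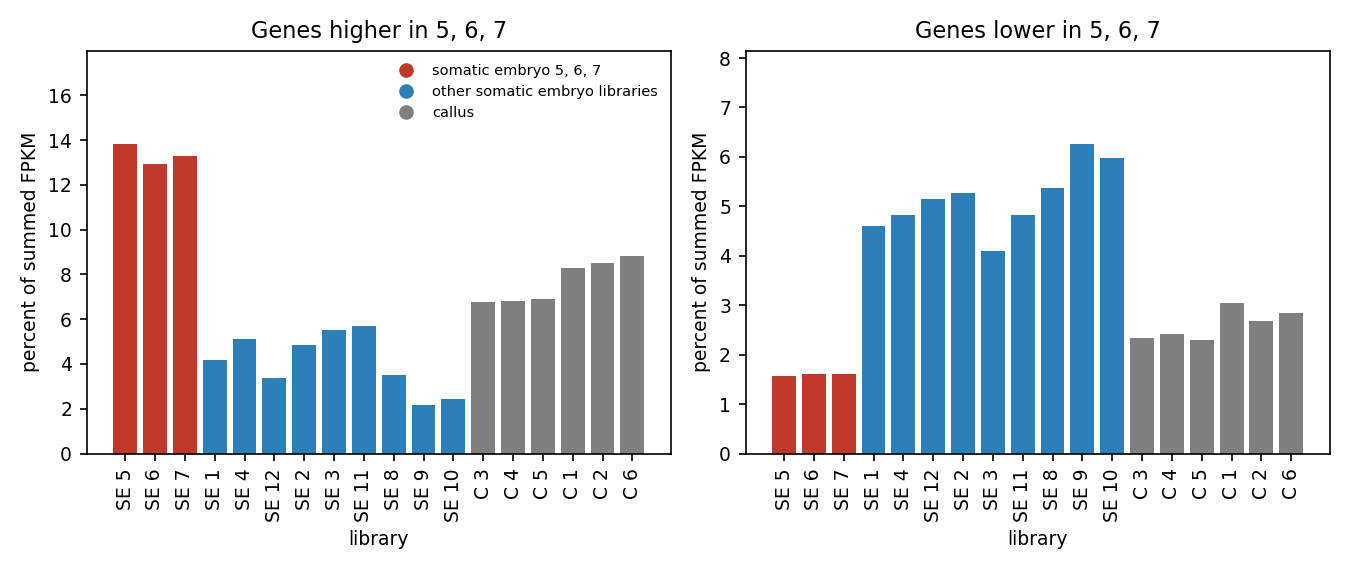
Percent of each library's summed FPKM (vertical axes) held by the 1373 genes higher and the 676 genes lower in somatic embryo 5, 6 and 7, for all 18 libraries. Callus bars, at 6.75% to 8.81% in the first panel and 2.29% to 3.05% in the second, lie between those of the embryo groups.

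Called genes were also found among the most abundant transcripts. Ranked by mean FPKM in somatic embryo 5, 6 and 7, the top 10 genes included 4 that were called higher there and 4 that were also in the top 10 by the mean of the other embryo libraries. Of the top 100, 25 were called higher and 2 lower, and 63 were also in the top 100 of the other 9. Over all analysed genes 6.55% were called higher and 3.22% lower, but a ranking by the 3 libraries' own values favours genes that are high in them, so nothing is read from these counts. The top 100 of the 3 libraries shared 58 genes with that of 1, 4 and 12, 57 with 8, 9 and 10, 55 with 2, 3 and 11, 55 with callus 3, 4 and 5 and 51 with callus 1, 2 and 6. Of the top 100 of the other 9 libraries, which a ranking favours in the opposite way, 8 were called lower and 3 higher in somatic embryo 5, 6 and 7.

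Set against each other group of 3 libraries in turn, somatic embryo 5, 6 and 7 differed in 3403 genes (16.2%) from 1, 4 and 12, in 3459 (16.5%) from 2, 3 and 11 and in 5755 (27.4%) from 8, 9 and 10, by the same fold and overlap rule. From callus 3, 4 and 5 they differed in 3980 genes (19.0%), and from callus 1, 2 and 6 in 5840 (27.9%). These comparisons all share the 3 libraries. On FPKM as deposited, more genes were higher in somatic embryo 5, 6 and 7 than lower in each of them, at 2075 and 1328 against 1, 4 and 12, 2133 and 1326 against 2, 3 and 11, 3178 and 2577 against 8, 9 and 10, 2456 and 1524 against callus 3, 4 and 5 and 3457 and 2383 against callus 1, 2 and 6. The median analysed gene differed by 0.20 (log2) from 2, 3 and 11 and by -0.08 to -0.01 from the other 4 groups, so the split against 2, 3 and 11 includes a shift of all genes. After median-of-ratios scaling, chosen after seeing the data, that split turned to 1569 higher and 1810 lower genes, and after quantile normalization to 1532 and 1659. In the 4 other comparisons the higher genes stayed the more numerous under both scalings.

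The genes called lower had callus levels near those of the 3 libraries. Their median mean log2(FPKM + 1) was 2.13 in somatic embryo 5, 6 and 7, with quartiles of 0.83 and 3.85, and 3.92 in the other 9, with quartiles of 2.63 and 5.42. In callus 3, 4 and 5 the median was 1.62, with quartiles of 0.34 and 4.06, and in callus 1, 2 and 6 also 1.62, with quartiles of 0.22 and 4.04. For the genes called higher, the callus medians lay between those of the embryo groups. They were 3.36 and 3.53 in the same callus sets, against 4.48 in the 3 libraries and 2.60 in the other 9. Single genes varied widely around these medians. The difference of the 3 libraries from callus 3, 4 and 5 had quartiles of 0.12 and 2.24 (log2). From callus 1, 2 and 6 the quartiles were -0.10 and 2.45. Among the other embryo libraries, 8, 9 and 10 were the farthest from the 3 in both directions, at 2.36 for the higher genes and 4.32 for the lower. Over all analysed genes, the medians of the 6 sets ran from 3.66 to 3.92.

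**Figure D4:**
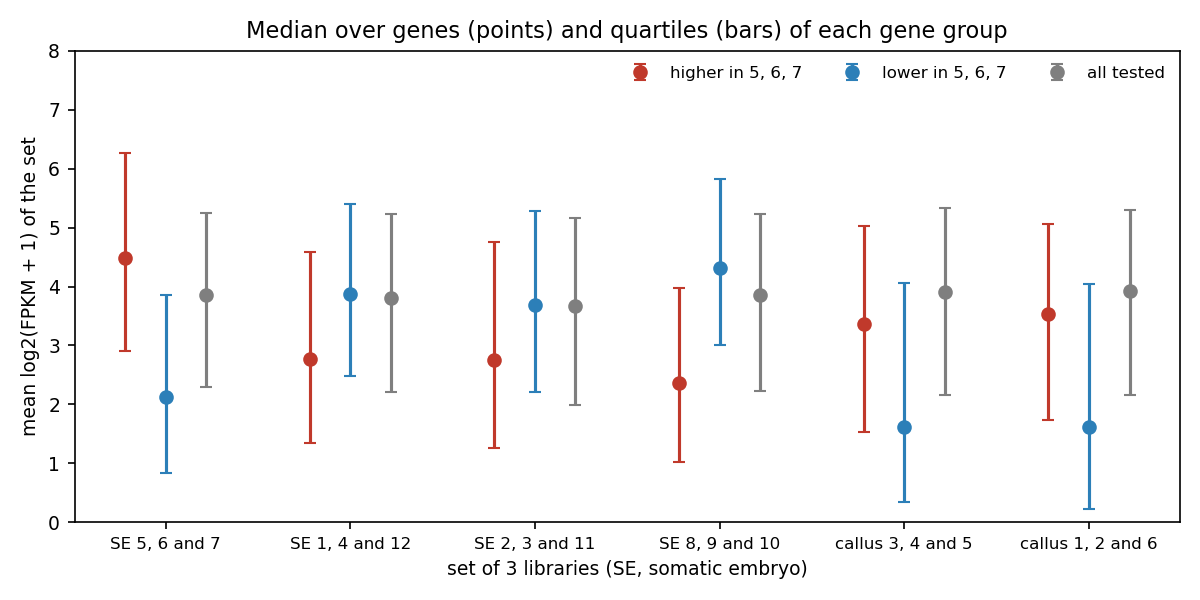
Mean log2(FPKM + 1) within each set of 3 libraries (vertical axis), as the median (points) and quartiles (bars) over the 1373 genes higher in somatic embryo 5, 6 and 7, the 676 genes lower and all 20967 analysed genes. In both callus sets the median of the lower genes is 1.62, near the 2.13 of the 3 libraries, and that of the higher genes is 3.36 and 3.53, between the 4.48 of the 3 libraries and the 2.36 to 2.77 of the other embryo sets.

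The genes with the largest positive difference were Cm11G01803.gene and Cm02G01711.gene, which behaved differently in callus. In somatic embryo 5, 6 and 7, Cm11G01803.gene had values of 95.9, 130 and 126 FPKM. In the other 9 embryo libraries it ranged from 1.48 to 11.9 FPKM with a median of 3.14, and in the 6 callus libraries from 111 to 174 FPKM with a median of 131. The gene was high in the 3 embryo libraries and all of callus and low in all 9 others, and the embryo groups did not overlap. Its means were 118 ± 18.9 FPKM (SD, n = 3) and 4.25 ± 3.29 FPKM (SD, n = 9), a ratio of 27.7 and a difference of 4.69 on the log2(FPKM + 1) scale. Cm11G01803.gene was the 1644th most abundant gene in the 3 libraries and the 15595th in the other 9.

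Values of Cm02G01711.gene were 87.0, 72.6 and 79.6 FPKM in the 3 libraries, in the order 5, 6 and 7. In the other embryo libraries it ran from a listed 0 in somatic embryo 9 to 37.0 FPKM in somatic embryo 4, with a median of 2.54, and in callus from 0 to 0.73 FPKM. It was thus highest in the 3 libraries, intermediate in somatic embryo 2, 3, 4 and 11, at 10.7 to 37.0 FPKM, and near 0 in callus. The difference was 3.94 (log2), and the ratio of mean FPKM was 8.24. Somatic embryo 1, 4 and 12 parted widely in this gene, at 0.72, 37.0 and 1.61 FPKM.

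The largest negative differences belonged to Cm09G00331.gene and Cm10G00342.gene. Somatic embryo 5, 6 and 7 held 10.2, 7.25 and 19.5 FPKM of Cm09G00331.gene. The gene ranged from 186 to 690 FPKM with a median of 453 in the other 9, and was at most 0.51 FPKM in callus. Its level in the 3 libraries was therefore low beside the other embryos but above every callus library. The means of 12.3 ± 6.37 FPKM (SD, n = 3) and 426 ± 161 FPKM (SD, n = 9) differed 34.6-fold, or by -5.01 on the log2(FPKM + 1) scale. This gene was the 341st most abundant in the other 9 libraries and the 10964th in the 3.

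Cm10G00342.gene was low in somatic embryo 5, 6 and 7, at 2.96, 1.90 and 2.62 FPKM, and ranged from 16.7 to 201 FPKM with a median of 42.0 in the other 9. Within these, libraries 4, 8, 9 and 10 held 106 to 201 FPKM and the other 5 held 16.7 to 42.0 FPKM. Callus was divided, with 14.2 to 21.3 FPKM in callus 1, 2 and 6 and 0.20 to 0.44 FPKM in callus 3, 4 and 5, so the 3 embryo libraries lay between the callus sets. The difference was -4.17 (log2), with a 34.4-fold ratio of mean FPKM.

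**Figure D5:**
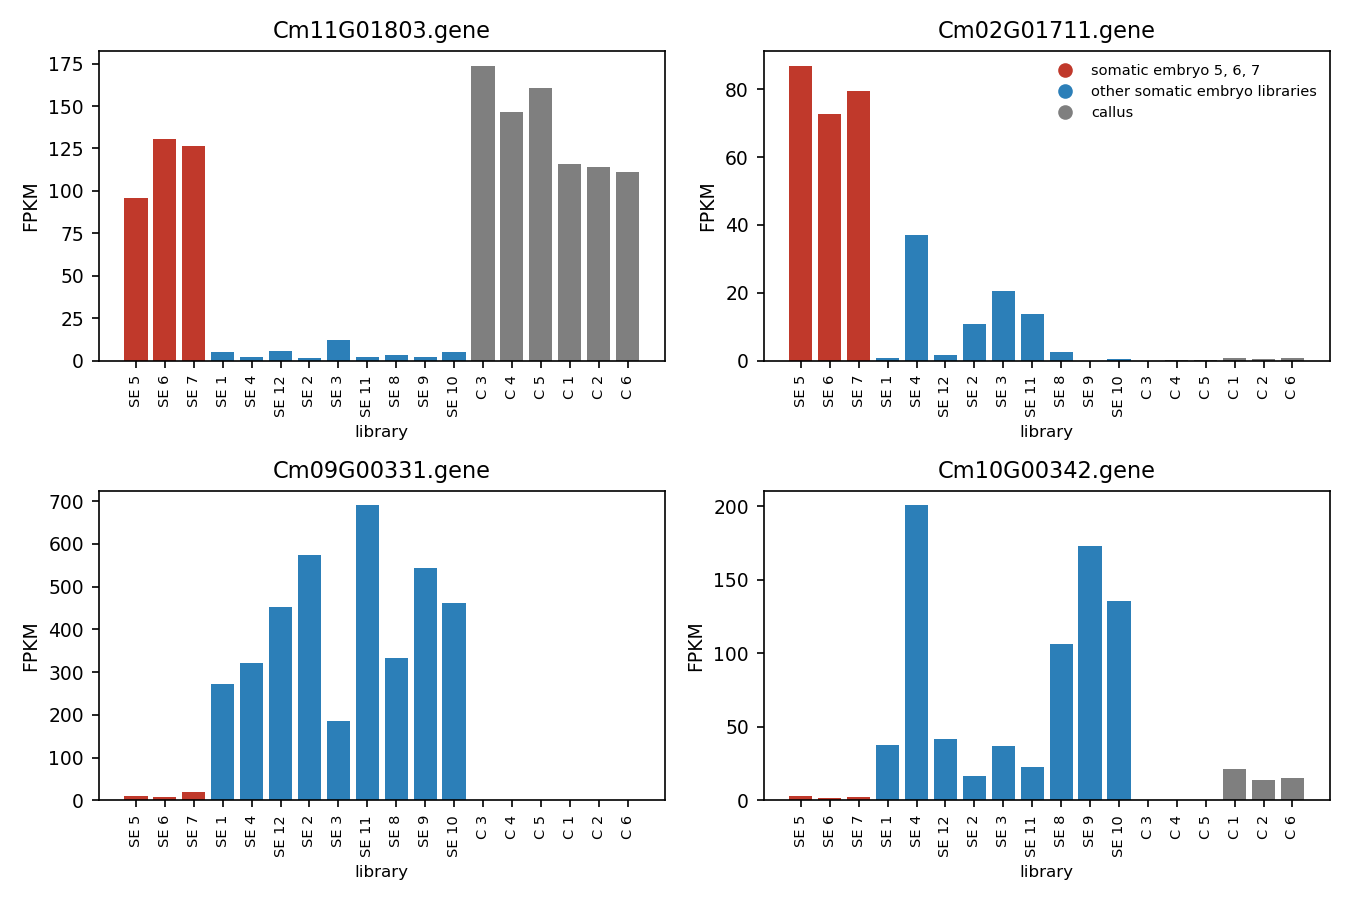
FPKM (vertical axes) of the 4 named genes in every library (horizontal axes), 1 bar a library. Cm11G01803.gene is at 95.9 FPKM or more in somatic embryo 5, 6 and 7 and in callus, Cm02G01711.gene is highest in the 3 libraries, and Cm09G00331.gene and Cm10G00342.gene are lower in each of the 3 (at most 19.5 and 2.96 FPKM) than in each of the other 9 embryo libraries (at least 186 and 16.7 FPKM).

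Complete switches between the embryo groups were rare. With at least 1 FPKM in each library of one group and at most 0.1 FPKM in each of the other, 1 gene was on in somatic embryo 5, 6 and 7 alone and 1 was off in them alone. The first stood at 1.21, 1.01 and 1.25 FPKM in the 3 libraries, just over the limit, and at 0 in 8 of the 9 others. In callus it reached 2.73 to 3.35 FPKM in libraries 3, 4 and 5 and 65.5 to 77.0 FPKM in libraries 1, 2 and 6. The second stood at 0.07, 0.07 and 0.10 FPKM in the 3 libraries, at 2.38 to 36.8 FPKM in the others and at no more than 0.12 FPKM in callus. These criteria ask for different numbers of libraries at each limit, so the counts do not compare the directions. Each count needs every embryo library to meet a limit, and how many called genes were detected in both groups was not counted.

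Genes called the same way often stood next to each other in the ID numbering. Of the higher genes, 17.3% were followed by an analysed gene that was also called higher, where 6.55% of all analysed genes were so followed. For the lower genes the shares were 8.14% and 3.23%. The longest unbroken runs of analysed genes, all of higher genes, held 8 neighbours in series 11 of the IDs, 7 in series 3 and 5 in series 8, and 8 further runs held 4. In the run of 8 the median gene had 73.5 FPKM in the 3 libraries and 13.1 FPKM in the others. Adjacent IDs can belong to near-identical copies that share reads, so members of such runs are uncertain as separate genes. Over the numbered series 1 to 12, the share called higher ran from 5.32% to 7.73% and the share called lower from 2.55% to 4.45%. In series 00, with 302 analysed genes, 11.9% were higher and 2.98% lower.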

How the data were processed

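The authors deposited FPKM values in a single table of the whole series, with 2 decimals a value. Per the submitters' processing notes, FastQC 0.11.9, Trimmomatic and STAR 2.7.10b were used. Which program, genome build and gene models gave the FPKM is not given in the sources used here. Of 213 columns, the 18 whose names match a labelled sample's title were used and 195 were not used. FPKM is relative to the library total, so abundant genes lower all others. Low values of 0.3 to 1 FPKM were searched for whole-read steps: at most 12.6% of genes lay within 0.02 (log2) of the best steps in a pair of the 3 libraries, against a median of 7.38% or less at other offsets, so no counts were recovered and depth is unknown.

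Genes with at least 1 FPKM in 3 of the 12 embryo libraries were kept. Calls, differences, gene-wise spread, principal components and rank correlations were computed on log2(FPKM + 1). Abundance ranks, shares of the summed FPKM and the means, ranges and ratios of named genes were computed on FPKM. All was run in Python 3.11.15 with NumPy 2.4.6 and pandas 2.3.3. The calling rule was run on simulated data to check the code. All 12 simulated libraries had the small spread of somatic embryo 5, 6 and 7, a median standard deviation of 0.09 (log2). The other 9 had 0.47, so the simulation says nothing of false calls in these data. Members, sets of libraries and measures were chosen with earlier results of these data known. Named genes were the 2 with the largest difference in each direction among those without overlap, the limit set for IDs without names. Marker lists could not be matched to IDs and were not run. Alternatives were pseudocounts, filters, folds, TPM scale, median-of-ratios and quantile scaling, and leaving out libraries. The scalings of the counts by level and against each set of 3 libraries were added once results had been seen.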

Additional observations from a re-analysis of the deposited data

Results flagged for a closer look

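Somatic embryo 3 stood apart from the other 8 of the 9 embryo libraries in Cm11G01803.gene, the gene with the largest positive difference. It held 11.9 FPKM, and its gap to the next library was 0.608 of the range of the 9. This was the only 1 of 20 groups of values examined in which a library lay that far out, and chance gives about 1 in 20. The groups were 10 measures, each in the 9 other embryo libraries and in callus. That rate holds for normally distributed values, and no measure was put on a log scale, so nothing is read from the flag. Somatic embryo 3 was also the library most like somatic embryo 5, 6 and 7 over all genes. Groups of 3 libraries were not examined in this way.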

How the results depend on the processing

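The higher genes outnumbered the lower under every setting run, at 58.8% of the called genes (quantile normalization, 1200 and 840) to 72.2%, against 67.0%. The count of higher genes, 1373, was 864 at a mean of at least 5 FPKM and 410 at 4-fold. The count of lower genes, 676, was 158 at 4-fold, 1114 at 1.5-fold, 1183 with overlap allowed and 1068 without somatic embryo 2, 3 and 11. Gaps of 2-fold, 283 higher and 100 lower, became 487 and 213 without somatic embryo 1, 4 and 12, 548 and 238 without 2, 3 and 11 and 428 and 175 without 8, 9 and 10, and the lower ones 182 and 198 with pseudocounts of 0.1 and 0.01. Leaving out 1 library gave 1315 to 1506 higher and 668 to 748 lower genes. Switched genes numbered 0 when a listed 0 was required, and 1 to 3 (on; 3 without somatic embryo 5, 2 without somatic embryo 4) and 1 to 2 (off; 2 without somatic embryo 5 or 7) with 1 library left out. The lowest correlation within the 3 libraries exceeded the highest to another embryo library by 0.063, and by 0.033 without the filter; the cause was not tested. Within the next 3 analysed genes in ID order, 30.2% of higher and 16.4% of lower genes had a like neighbour. Among all analysed genes the shares were 16.9% and 9.01%. The 4 named genes kept their direction in all 17 settings each. They were picked for the largest differences without overlap, so these settings could hardly reverse them and nothing is read from this. No paired analysis was possible because the labels give nothing that links embryo libraries 5, 6 and 7 to any of the other 9. Unknown depth limits what can be said of genes near 0.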
